A study of Homo sapiens with 8 samples.

Results

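The genes described here are 10 members of the bone morphogenetic protein (BMP) pathway: the ligands BMP2, BMP4 and BMP7, the inhibitors of DNA binding ID1, ID2, ID3 and ID4, and the SMAD genes SMAD6, SMAD7 and SMAD9. They were chosen by symbol, and all 10 were found among the 59050 genes counted in each library. RNA-seq was made from 8 tumours grown as xenografts from the established lung adenocarcinoma line H2122, of human origin. The parental group was 4 tumours of cells labelled wild type, and the knockout group was 4 tumours of H2122 cells with a SMARCA4 knockout. All 8 tumours had received vehicle, so no group carries another agent. The labels do not say whether the knockout cells were 1 clone or a pool, which mouse strain was the host, or whether the tumours of a group came from separate cell preparations. With the last not known, p-values measure the spread between these tumours.

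BMP ligands are secreted dimers that bind a complex of type I and type II serine/threonine kinase receptors. The receptors phosphorylate SMAD1, SMAD5 and the SMAD9 product, which enter the nucleus with SMAD4 and switch on target genes, among which ID1, ID2 and ID3 are classic readouts. ID proteins have a helix-loop-helix but no basic region, so they bind E proteins such as TCF3 and keep them off DNA. SMAD6 and SMAD7 are inhibitory SMADs, themselves induced by the pathway, and SMARCA4 encodes BRG1, an ATPase that drives SWI/SNF nucleosome remodelling.

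The promoters of the ID genes and of SMAD6 are printed because the ID family held both a rise and a fall in RNA level, and because SMAD6 held the rarest of the words searched. Sequences are the 250 bases before the start site in RefSeq (GRCh38.p14), 5′ to 3′ on the gene's strand: ID1 at chr20:31605039-31605288 (plus), ID2 at chr2:8681806-8682055 (plus), ID3 at chr1:23559502-23559751 (minus), ID4 at chr6:19837120-19837369 (plus) and SMAD6 at chr15:66701986-66702235 (plus). Capitals mark matches on either strand to the GC-rich SMAD words GGCGCC and GCCGNCGC, the SMAD palindrome GTCTAGAC, the half-site CAGACA, the E-box CAGCTG or the TATA-type word TATAAA.
ID1: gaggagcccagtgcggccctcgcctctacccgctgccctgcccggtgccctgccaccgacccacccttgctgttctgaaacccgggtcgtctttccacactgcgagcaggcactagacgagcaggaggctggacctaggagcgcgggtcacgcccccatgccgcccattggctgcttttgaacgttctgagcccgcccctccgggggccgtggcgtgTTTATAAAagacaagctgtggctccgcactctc
ID2: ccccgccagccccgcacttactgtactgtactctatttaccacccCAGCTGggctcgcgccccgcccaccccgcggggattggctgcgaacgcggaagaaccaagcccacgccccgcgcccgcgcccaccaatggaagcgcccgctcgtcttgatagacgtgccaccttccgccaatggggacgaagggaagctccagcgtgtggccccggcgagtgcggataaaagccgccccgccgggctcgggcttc
ID3: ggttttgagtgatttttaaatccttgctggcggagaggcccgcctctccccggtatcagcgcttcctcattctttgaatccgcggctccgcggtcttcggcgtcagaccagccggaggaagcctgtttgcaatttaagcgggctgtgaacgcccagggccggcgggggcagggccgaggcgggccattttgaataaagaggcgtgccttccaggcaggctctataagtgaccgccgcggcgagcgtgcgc
ID4: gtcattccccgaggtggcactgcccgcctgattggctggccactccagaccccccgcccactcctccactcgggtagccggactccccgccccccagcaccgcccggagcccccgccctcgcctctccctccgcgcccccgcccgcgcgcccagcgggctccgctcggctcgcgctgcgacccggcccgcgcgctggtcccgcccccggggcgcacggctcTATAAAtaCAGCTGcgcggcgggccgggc
SMAD6: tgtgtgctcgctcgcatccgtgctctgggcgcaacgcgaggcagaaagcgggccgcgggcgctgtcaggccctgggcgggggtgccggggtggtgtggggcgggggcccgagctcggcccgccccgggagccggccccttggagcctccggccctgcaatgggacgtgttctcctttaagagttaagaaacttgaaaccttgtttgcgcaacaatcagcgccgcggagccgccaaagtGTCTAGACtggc

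The motifs were searched on both strands of windows that reach 250 bases before and 50 after the start site, and 8 of the 10 genes matched a window, with 12 windows in all. The TATA-type word TATAAA lay 31 bases before the start in ID1, where TTTATA, its complement, overlaps it. TATAAA also lay 29 bases before the start in ID4 and 35 bases before it in 1 of the SMAD7 windows. This word was in 11.5% of the 35116 windows of that length. The E-box CAGCTG, of the kind that E proteins bind, lay 205 bases before the start in ID2 and 21 before it in ID4, and was in 17.9% of all windows. Among the windows of the 8 genes, the SMAD palindrome GTCTAGAC was found in that of SMAD6 alone, 12 bases before its start. It was in 0.202% of all windows. The 3 windows of BMP4 held GGCGCC in 1 window, and that word was in 19.2% of all windows. GCCGNCGC, in 16.8% of all windows, had 8 matches in SMAD9. Of these, 1 lay 91 bases before the start, and 7 began at positions 23 to 41 after it, in a GCC repeat where each overlaps the next. The half-site CAGACA, in 16.9% of all windows, was found in a BMP4 window. The window of ID3 held none of the words searched, the general E-box CANNTG (68.7% of all windows) and the CRE TGACGTCA (1.85%) included. These are matches of letters and not measured binding sites, and sequence outside the windows was not searched.

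The libraries held 19785922 to 23191698 gene counts. SMARCA4 was 221 ± 16.03 CPM (read counts scaled to TMM-adjusted library size; SD, n = 4) in parental tumours and 27.3 ± 3.90 in knockout tumours, and was lower in each knockout tumour than in every parental tumour. By edgeR the log2FC was -3.02 (SE 0.117; adjusted p = 1.45e-07). Below, log2 fold changes (log2FC) are knockout over parental, from edgeR's quasi-likelihood test. A gene was called where its p, adjusted by Benjamini-Hochberg over all 16219 genes that passed the filter on low counts, was under 0.05.

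All 10 genes passed the filter, and 5 of them were called: BMP4, ID1 and ID4 rose in the knockout tumours, and ID2 and SMAD9 fell. Over all genes tested, 27.0% were called, 13.0% as higher and 14.1% as lower. The CPM of the groups did not overlap for 5 of the 10 genes, against 29.3% of all genes. The median log2 fold change of the 10 genes was 0.35 and that of all genes tested 0.0035. The genes therefore did not move as a block: the ID genes alone hold 2 rises, a fall and a gene that did not pass the test on all 8 tumours.

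**Figure D1:**
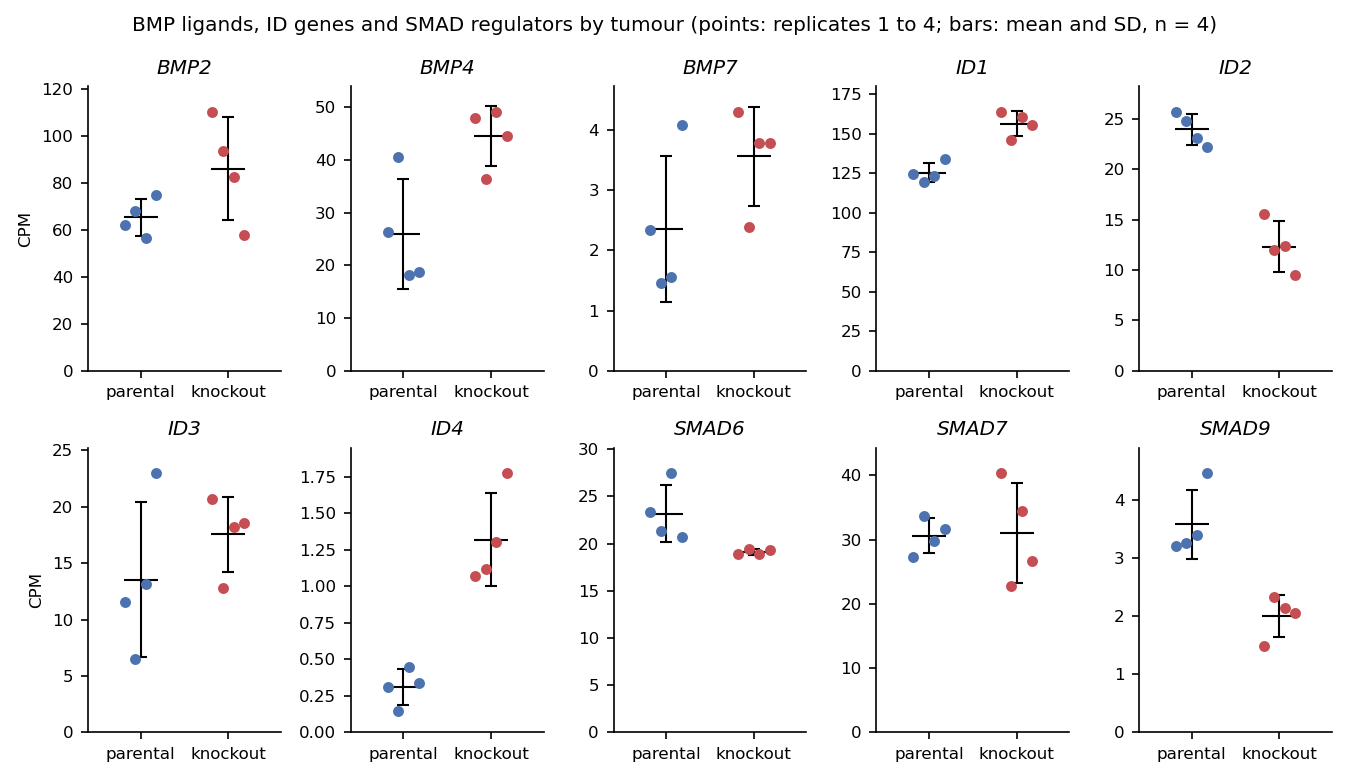
CPM of each of the 10 genes in each tumour (points, replicates 1 to 4 in order; blue parental, red knockout), with bars for the mean and SD. The groups are fully apart for ID1, ID2, ID4, SMAD6 and SMAD9, and overlap for the other 5 genes.

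Among the ligands, BMP4 was higher in knockout tumours, whereas BMP2 and BMP7 did not pass the test. BMP4 (chr14:53949736-53958761, minus strand, GENCODE 29 on GRCh38), a ligand with roles in lung development, was 26.4, 40.6, 18.2 and 18.8 CPM in parental tumours 1 to 4 and 48.0, 36.4, 49.1 and 44.4 CPM in knockout tumours 1 to 4. Parental tumour 2 lay above knockout tumour 2, and the other parental tumours lay below all knockout tumours. The means were 26.0 ± 10.4 and 44.5 ± 5.73 CPM (n = 4 per group, SD), which edgeR put at a log2FC of 0.78 (SE 0.227; adjusted p = 0.0254). The call was lost in 6 of the 8 fits that left out 1 tumour. Its edgeR adjusted p was 0.0546, 0.0606 and 0.0576 without parental 1, 3 and 4, and 0.0636, 0.0664 and 0.0512 without knockout 1, 3 and 4, with log2 fold changes between 0.64 and 0.78. Without parental 2, the log2 fold change was 1.08 (edgeR adjusted p = 0.000441).

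Fibroblast markers, most of all COL1A1, differed between tumours. The summed CPM of 10 fibroblast markers was 352, 612, 350 and 182 in parental tumours 1 to 4 and 591, 346, 607 and 380 in knockout tumours 1 to 4. In knockout tumours BMP4 and this sum had the same order (3, 1, 4, 2), and in parental tumours both were highest in tumour 2 and next in tumour 1. Only this 1 of the 7 marker sums is set beside BMP4 here. COL1A1 made up most of the sum, at 174 to 572 CPM in parental and 317 to 565 CPM in knockout tumours. The order of the sum thus rests mostly on this gene. Of the other markers, LUM was 0.104 to 0.638 CPM in parental and 10.1 to 15.5 CPM in knockout tumours, and COL3A1 averaged 11.5 and 10.3 CPM. Parental and knockout means were 5.04 and 7.62 CPM for COL1A2, 2.47 and 2.92 for FAP and 0.747 and 0.918 for COL6A3. They were 0.305 and 0.177 CPM for PDGFRB and 0.0991 and 0.285 for DCN. THY1 had 1 count over all 8 libraries and PDGFRA had 7. The part of this in the BMP4 difference was not tested, and in bulk RNA a change in the number of cells of a type and a change in RNA per cell cannot be told apart. Fibroblasts of the host would be mouse cells. Whether these marker counts are mouse reads or RNA of the human tumour cells was not tested.

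BMP2 (chr20:6767664-6780280, plus strand), the most abundant of the 3 ligands, was 62.0, 67.9, 56.6 and 74.8 CPM in parental tumours and 110.1, 93.6, 82.6 and 57.7 CPM in knockout tumours. Knockout tumours 1 to 3 lay above all parental tumours and knockout 4 lay among them. The log2 fold change was 0.40 (SE 0.170) and did not pass the test (edgeR adjusted p = 0.1101). Without knockout 4 it was 0.55 and passed (edgeR adjusted p = 0.00985). BMP2 passed in none of the other 15 settings tried (other tools, scalings and filters, a replicate block or 1 tumour left out). Without knockout 1 its log2 fold change was 0.26 (edgeR adjusted p = 0.303).

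BMP7 (chr20:57168748-57266629, minus strand), a ligand that also pairs with BMP2 or BMP4 in heterodimers, was 2.33, 1.46, 1.56 and 4.08 CPM in parental tumours and 4.30, 2.39, 3.78 and 3.78 CPM in knockout tumours. Parental 4 stood among the knockout tumours. With a log2FC of 0.59 (SE 0.324) it did not pass (edgeR adjusted p = 0.211). Without parental 4 it was 0.99 and passed (edgeR adjusted p = 0.0197). BMP7 passed in none of the other 15 settings tried, and without parental 2 its log2 fold change was 0.42 (edgeR adjusted p = 0.362).

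Of the 4 ID genes, ID1 rose slightly, ID4 rose from a very low level and ID2 fell, each with groups that did not overlap. ID1 (chr20:31605283-31606515, plus strand) was 125, 119, 123 and 134 CPM in parental tumours and 164, 146, 160.3 and 155 CPM in knockout tumours. Every knockout tumour was above every parental tumour. The means were 125 ± 6.07 and 156 ± 7.74 CPM (n = 4 per group, SD), which edgeR put at a log2FC of 0.32 (SE 0.0767; adjusted p = 0.00967), or 1.25-fold.

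ID2 (chr2:8678845-8684453, plus strand) was 25.7, 24.8, 23.1 and 22.2 CPM in parental tumours and 15.6, 11.9, 12.4 and 9.48 CPM in knockout tumours. Every knockout tumour was below every parental tumour. The means were 23.9 ± 1.57 and 12.3 ± 2.498 CPM (n = 4 per group, SD), and edgeR put the log2FC at -0.96 (SE 0.140; adjusted p = 0.000450). An antisense gene, ID2-AS1, overlaps ID2 and had 102 counts over the parental and 111 over the knockout libraries, with a log2 fold change of 0.12 (edgeR adjusted p = 0.817). The strand setting of the counting is not given in the sources used here, so how reads were assigned where the 2 genes overlap is not known.

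ID3 (chr1:23557918-23559794, minus strand) was 11.5, 6.54, 13.1 and 23.0 CPM in parental tumours and 20.7, 12.8, 18.2 and 18.5 CPM in knockout tumours. Parental 4 held the highest value of all 8 tumours and parental 2 the lowest, so the parental spread covered the knockout group. With a log2FC of 0.37 (SE 0.300) it did not pass (edgeR adjusted p = 0.398). Without parental 4 it was 0.75 (edgeR adjusted p = 0.0398). ID3 passed in none of the other 15 settings tried, and without parental 2 its log2 fold change was 0.14 (edgeR adjusted p = 0.691). The summed CPM of 10 leukocyte and macrophage markers was lowest in parental 4 (7.57) and highest in parental 2 (75.9). The order did not reverse throughout, since parental 3 had a sum of 65.0 and parental 1 one of 13.3, with ID3 higher in parental 3. In knockout tumours 1 to 4 the sums were 21.4, 31.3, 19.3 and 13.2. Knockout 2 had the highest sum and the lowest ID3 of its group, while knockout 1 had the next sum and the highest ID3. Only this 1 of the 7 marker sums is set beside ID3 here. Leukocytes of the host would be mouse cells, so these counts may be mouse reads or RNA of the human tumour cells. The 2 cannot be told apart here, and their part in the ID3 values was not tested.

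ID4 (chr6:19837386-19840684, plus strand) had 6, 3, 10 and 8 counts in parental tumours and 23, 23, 28 and 38 in knockout tumours. These are 0.311 ± 0.124 and 1.32 ± 0.319 CPM (n = 4 per group, SD), with the lowest knockout tumour above the highest parental tumour. By edgeR the log2FC was 2.05 (SE 0.336; adjusted p = 0.000952). The pooled counts, 112 against 27, gave a ratio of 4.19 after scaling (exact 95% interval 2.74 to 6.64, for counting error only). An antisense gene at the same place, AL022068.1, had 7 parental and 30 knockout counts. Without the strand setting, how reads were assigned where the 2 genes overlap is not known.

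**Figure D2:**
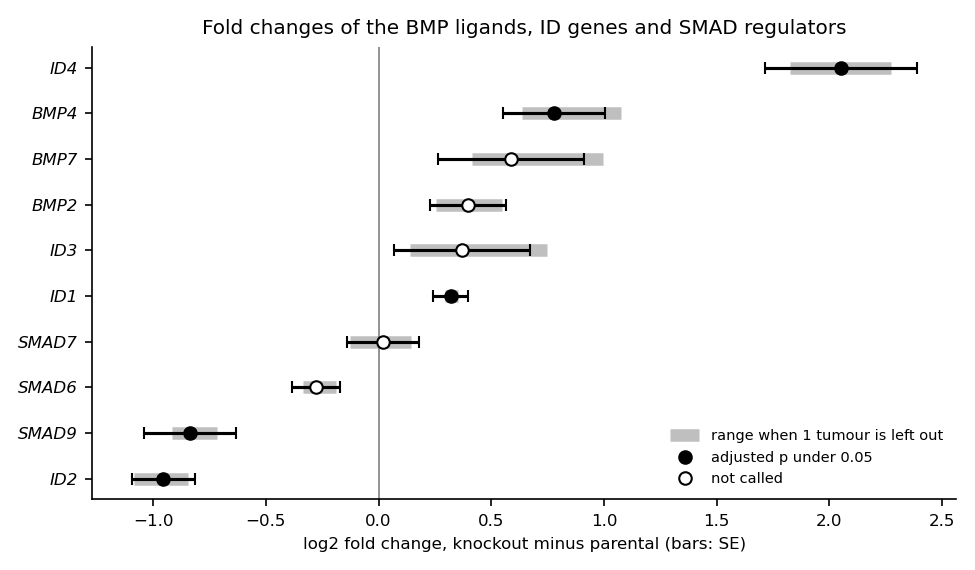
Log2 fold change (knockout minus parental, horizontal axis) of each of the 10 genes, sorted by value; bars are the SE, grey bands the range when 1 tumour is left out, and filled points were called at an adjusted p under 0.05. BMP4, ID1 and ID4 are filled above 0, and ID2 and SMAD9 are filled below it.

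Of the SMAD genes, SMAD9 fell, SMAD6 was lower without passing the test, and SMAD7 showed little difference between means. SMAD9 (chr13:36844831-36920765, minus strand), which encodes a receptor-regulated SMAD of the BMP branch, was 3.21, 3.27, 3.39 and 4.46 CPM in parental tumours and 1.495, 2.34, 2.15 and 2.05 CPM in knockout tumours. All knockout tumours lay below all parental tumours, and parental 4 was the highest. The means were 3.59 ± 0.591 and 2.01 ± 0.363 CPM (n = 4 per group, SD), which edgeR put at a log2FC of -0.84 (SE 0.205; adjusted p = 0.0108). Without parental 4 it was -0.72 (edgeR adjusted p = 0.0284).

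SMAD6 (chr15:66702228-66782848, plus strand), the inhibitory SMAD directed mainly at BMP receptors, was 23.3, 21.3, 27.4 and 20.7 CPM in parental tumours and 18.9, 19.4, 18.9 and 19.3 CPM in knockout tumours. The groups did not overlap, and the knockout tumours lay within a narrow range (SD 0.290, against 3.05 in parental tumours). With a log2FC of -0.28 (SE 0.106) it did not pass (edgeR adjusted p = 0.0750). Without parental 4, which lay nearest to the knockout tumours, it was -0.34 and passed (edgeR adjusted p = 0.0429). SMAD6 passed in none of the other 15 settings tried, and without parental 3 its log2 fold change was -0.19 (edgeR adjusted p = 0.183).

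SMAD7 (chr18:48919853-48952052, minus strand), the inhibitory SMAD that acts on both TGF-beta and BMP receptors, was 27.3, 33.7, 29.8 and 31.6 CPM in parental tumours and 40.3, 22.8, 34.4 and 26.7 CPM in knockout tumours. Knockout tumours lay both above and below the whole parental range. By edgeR the log2FC was 0.02 (SE 0.160; adjusted p = 0.941), and its sign turned in 6 of the other settings tried.

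Levels of different genes were compared as CPM per kilobase of the gene's union of exons, which does not account for which isoforms are used. ID1 stood highest in both groups, at 102 ± 4.92 in parental and 127 ± 6.28 in knockout tumours (n = 4 per group, SD), above BMP2 at 18.1 ± 2.17 and 23.9 ± 6.11. In parental tumours ID2 (10.9 ± 0.713), BMP4 (8.43 ± 3.39), ID3 (7.54 ± 3.83) and SMAD7 (6.08 ± 0.539) followed, and each overlapped its neighbour in that order. SMAD6 (2.71 ± 0.356) came next, apart from SMAD7 and from SMAD9 (0.626 ± 0.103). SMAD9 overlapped BMP7 (0.436 ± 0.224), and ID4 (0.133 ± 0.0530) lay lowest and apart. In knockout tumours BMP4 (14.4 ± 1.86) and ID3 (9.77 ± 1.86) stood above SMAD7 (6.17 ± 1.56) and ID2 (5.59 ± 1.13), with only ID3 and SMAD7, and SMAD7 and ID2, overlapping. SMAD9 (0.351 ± 0.0634) was then the lowest of the 10, below ID4 (0.563 ± 0.136), which overlapped BMP7 (0.657 ± 0.151).

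Within the ID family, ID2 held a smaller share and ID1 and ID4 larger ones in the knockout tumours. ID1 was 84.7% ± 1.69 of the summed per-kilobase level of ID1 to ID4 in parental tumours and 88.9% ± 1.08 in knockout tumours (n = 4 per group, SD). Its ranges were 82.5 to 86.6% and 87.5 to 90.1%. The share of ID2 went from 9.09% ± 1.07 to 3.91% ± 0.672, with ranges of 7.66 to 10.0% and 3.04 to 4.65%. ID3 made up 6.14% and 6.81%, and ID4 0.1097% and 0.396%. Among the 3 ligands, BMP2 made up 67.8% and 60.6%, BMP4 30.6% and 37.7%, and BMP7 1.63% and 1.71%. These shares are a description of the 8 tumours.

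**Figure D3:**
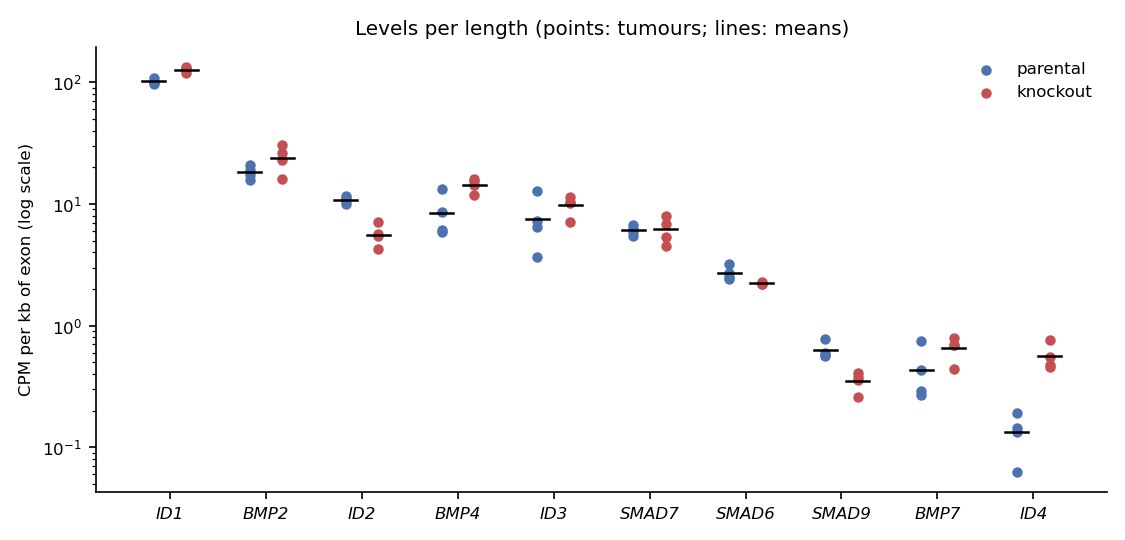
CPM per kilobase of exon (log axis) of each gene in each tumour, parental in blue and knockout in red, in the order of the parental means. ID1 lies highest in both groups at 102 and 127, and the lowest place is held by ID4 in parental and by SMAD9 in knockout tumours.

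Across the 8 tumours, likeness was measured as the root mean square difference of log2 CPM centred on each gene's mean, over 13052 genes with average log2 CPM of at least 1. COLGALT1 (0.0367), AIFM2 (0.0435) and VASP (0.0452) were nearest to ID1. HEATR4 (0.145), TLN2 (0.149) and EPB41L2 (0.156) were nearest to BMP4. EDA2R (0.210), TEAD2 (0.249) and TNFSF9 (0.250) were nearest to ID3. Among the 10 genes themselves, BMP2 and ID1 (0.256), BMP7 and ID3 (0.259) and ID1 and SMAD7 (0.263) were the closest pairs, and the falling genes ID2 and SMAD9 differed by 0.372. A gene that varies little has small differences from any other gene of that kind, so these values are descriptions.

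The other genes of the pathway were taken from 7 lists, in which 56 of 93 listed genes passed the filter on low counts. Of these 56, 8 rose, 17 fell and 31 did not pass the test, with a median log2 fold change of -0.18. That is 44.6% called against 27.0% of all genes, and the genes were counted by list with no test of any list. The share called was 66.7% of other ligands, 63.6% of antagonists and modulators and 60% of other targets. It was 37.5% of receptors and 33.3% of cell-cycle inhibitors. In the SMAD list and the E-protein list it was 28.6% each, close to the share of all genes.

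Of the other ligands, 3 of 11 were tested. BMP6, a ligand of the BMP5, BMP6 and BMP7 subgroup, rose from 2.28 ± 0.774 to 12.6 ± 3.30 CPM (n = 4 per group, SD), which edgeR put at a log2FC of 2.47 (SE 0.268; adjusted p = 5.46e-05). BMP3, known as an antagonistic member of the family, fell from 6.77 ± 2.45 to 0.108 ± 0.129 CPM (n = 4 per group, SD; edgeR adjusted p = 1.44e-05). Its counts were 579 against 9, a parental-to-knockout ratio of 63.6 (exact 95% interval 33.3 to 139.9, for counting error only). Without knockout 2, which held 6 of the 9 counts, the ratio was 145 (49.3 to 704). BMP8B had a log2 fold change of -0.03 (edgeR adjusted p = 0.882), and its reads can be split with its close paralog BMP8A.

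Of 8 receptors and co-receptors tested, 3 fell and none rose (37.5% called, against 27.0% of all genes). BMPR1B, a type I BMP receptor, fell from 34.3 ± 1.67 to 21.1 ± 1.73 CPM (n = 4 per group, SD), which edgeR put at a log2FC of -0.70 (SE 0.0912; adjusted p = 0.000203). The type I receptor ACVR1 fell by 0.43 on the log2 scale (edgeR adjusted p = 0.00935), and the type II receptor ACVR2A by 0.62 (edgeR adjusted p = 0.00518). BMPR1A, the other main type I receptor, was 30.5 ± 1.99 and 36.5 ± 3.997 CPM (n = 4 per group, SD) and did not pass (log2 fold change 0.26, edgeR adjusted p = 0.0792), but passed without knockout 4 (edgeR adjusted p = 0.0186). The main type II receptor, BMPR2 (log2 fold change -0.09, edgeR adjusted p = 0.735), did not pass, nor did ACVR2B (0.19) or the co-receptor RGMB (-0.17). ENG (-1.17, edgeR adjusted p = 0.178), an endothelial co-receptor, depended on the tumours used. It had 8, 55, 37 and 7 counts in parental tumours and 10, 12, 15 and 10 in knockout tumours. The log2FC of ENG was -0.51 (edgeR adjusted p = 0.512) without parental 2 and -1.52 (edgeR adjusted p = 0.0495) without parental 4.

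Of 11 secreted antagonists and modulators tested, 6 rose, 1 fell and 4 did not pass, with a median log2 fold change of 0.63. Noggin (NOG), which binds BMP2, BMP4 and BMP7 and blocks their receptor sites, had 0.570, 0.195, 0.402 and 0.808 CPM in parental tumours and 4.30, 10.7, 6.95 and 7.05 CPM in knockout tumours. The lowest knockout tumour lay above the highest parental tumour. By edgeR the log2FC was 3.84 (SE 0.379; adjusted p = 2.86e-05), with 43 parental and 611 knockout counts in all. KCP rose by 1.61 (edgeR adjusted p = 0.000349), FSTL3 by 0.68 (0.00399), FST, an antagonist of activins and some BMPs, by 1.55 (0.00564) and NBL1 by 0.34 (0.0201). KCP is in the list as a secreted regulator of BMP ligands and is known mainly to enhance BMP signalling. CRIM1 fell by 0.34 (edgeR adjusted p = 0.0400), a call lost without parental 1, 2 or 4 or knockout 2, 3 or 4 (edgeR adjusted p = 0.0515 to 0.102) and with the replicate block (0.0565). CHRD, which encodes the antagonist chordin, had a log2 fold change of -0.91 (edgeR adjusted p = 0.0588) and FSTL1 one of 0.63 (edgeR adjusted p = 0.132), and both passed without parental 2 (edgeR adjusted p = 0.0261 and 0.00624). TWSG1 (0.02) and BMP1 (-0.23) did not pass. GREM1 had 0 parental and 2 knockout counts and was not tested.

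Among 14 SMAD transducers and regulators tested, 4 fell and 10 did not pass (28.6% called, close to the 27.0% of all genes). The transducers that share the pathway with SMAD9 did not pass: SMAD1 was 19.0 ± 0.945 and 16.1 ± 2.18 CPM (n = 4 per group, SD; log2 fold change -0.24, edgeR adjusted p = 0.154), SMAD5 had a log2 fold change of -0.08 (0.641) and SMAD4 one of -0.02 (0.916). The co-repressor SKI fell from 101 ± 5.08 to 67.6 ± 8.93 CPM (n = 4 per group, SD; edgeR adjusted p = 0.00148). PRMT1, NEDD4L and STUB1 fell by 0.36, 0.37 and 0.35 on the log2 scale (edgeR adjusted p = 0.0207, 0.0213 and 0.0342). Leaving out 1 tumour ended each of these 3 calls in some fits. PRMT1 lost its call without knockout 1, 2 or 3 (edgeR adjusted p = 0.0550 to 0.0721), NEDD4L without parental 1 or knockout 4 (0.0641 and 0.0557), and STUB1 without parental 1, 3 or 4 or knockout 1, 2 or 3 (0.0683 to 0.107).

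**Figure D4:**
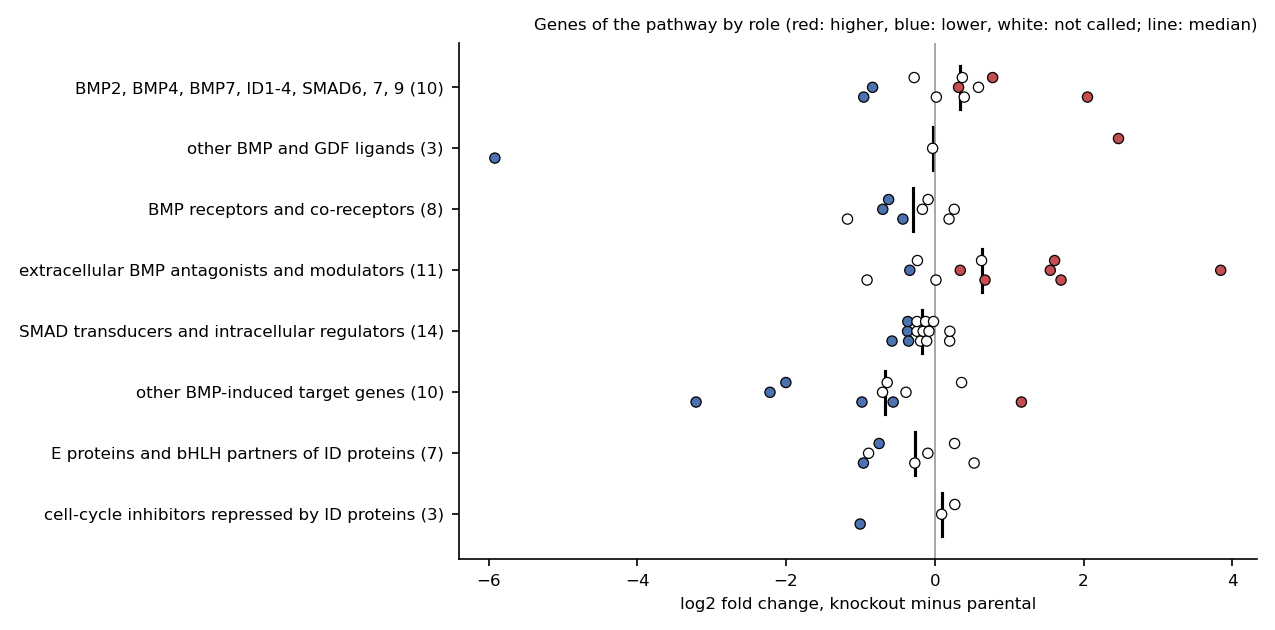
Log2 fold change of every tested gene, by role in the pathway (red called higher, blue called lower, white not called; black lines are medians; the number tested stands in brackets). NOG lies furthest to the right at 3.84, and BMP3, ATOH8 and DLX5 lie furthest to the left.

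Of 10 other target genes of the pathway tested, 1 rose, 5 fell and 4 did not pass, with a median log2 fold change of -0.67. BAMBI, a pseudoreceptor that is both a target and an inhibitor, was 28.1, 29.2, 23.0 and 27.3 CPM in parental tumours and 66.3, 48.9, 66.1 and 59.9 CPM in knockout tumours, with no overlap. By edgeR the log2FC was 1.16 (SE 0.118; adjusted p = 3.48e-05). HEY1, a transcriptional repressor that Notch signalling also drives, was 76.1, 59.9, 58.8 and 72.6 CPM in parental tumours and 15.5, 22.6, 15.8 and 12.8 CPM in knockout tumours. All knockout tumours lay far below the parental range, and edgeR put the log2FC at -2.002 (SE 0.165; adjusted p = 8.89e-06). ATOH8 fell by 3.21 on the log2 scale (229 against 24 counts, edgeR adjusted p = 4.92e-05) and the homeobox gene DLX5 by 2.22 (edgeR adjusted p = 0.000986). RUNX2 and GATA2 fell by 0.98 and 0.56 (edgeR adjusted p = 0.00187 and 0.0195), and GATA2 lost its call without knockout 2 (edgeR adjusted p = 0.0601) and without knockout 3 (0.0591). The log2 fold changes of the 4 that did not pass were -0.70 for GATA3, -0.64 for HEY2, -0.39 for MSX1 and 0.36 for MSX2. GATA3 passed without parental 1 (edgeR adjusted p = 0.0175) and in none of the other 15 settings tried.

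The E proteins are the partners that ID proteins bind. TCF3, which encodes the E proteins E12 and E47, fell from 151 ± 10.9 to 89.6 ± 4.30 CPM (n = 4 per group, SD), which edgeR put at a log2FC of -0.75 (SE 0.0818; adjusted p = 5.78e-05). TCF4 (0.27, edgeR adjusted p = 0.613) and TCF12 (-0.27, edgeR adjusted p = 0.117) did not pass, nor did the bHLH genes TWIST1 (0.53), TWIST2 (-0.89) and HES4 (-0.09). HES1, a bHLH repressor downstream of Notch, fell by 0.96 (edgeR adjusted p = 0.000300). TCF3 and HES1 were the 2 of 7 tested genes of that list that were called (28.6%, close to the 27.0% of all genes). Of the 3 cyclin-dependent kinase inhibitors tested, CDKN1C fell by 1.00 (edgeR adjusted p = 0.00405), and CDKN1A (0.27, edgeR adjusted p = 0.179) and CDKN1B (0.09, edgeR adjusted p = 0.594) did not pass.

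**Figure D5:**
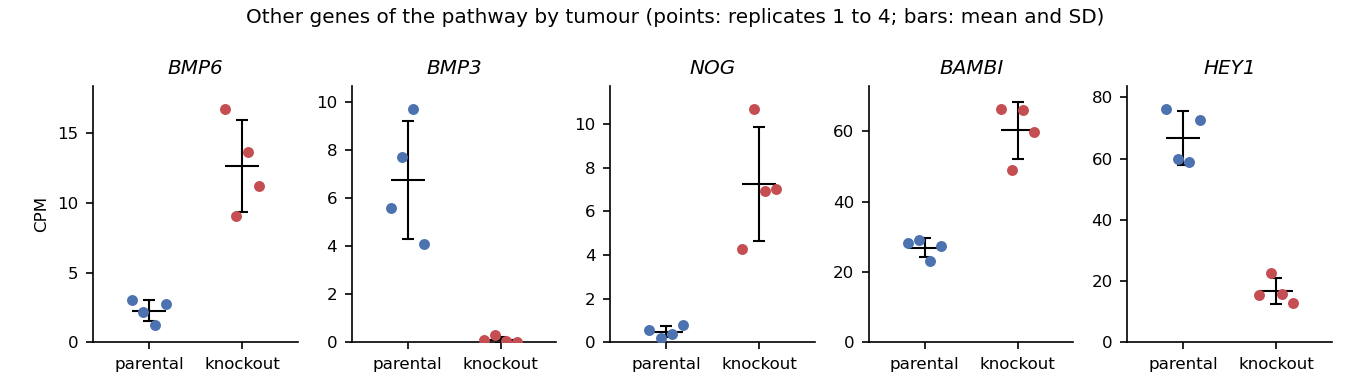
CPM in each tumour of the ligands BMP6 and BMP3, the antagonist NOG and the targets BAMBI and HEY1 (points, replicates 1 to 4 in order; blue parental, red knockout), with the mean and SD of 4 tumours. BMP6, NOG and BAMBI are higher and BMP3 and HEY1 lower in every knockout tumour than in every parental tumour.

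As a check of the labelled cell type, all 10 epithelial markers were expressed, with summed levels of 8645 to 9797 CPM in parental and 7296 to 8688 CPM in knockout tumours. Of these 10, 4 were called lower and 0 higher, against 27.0% of all genes called. Parental and knockout means were 1675 and 1024 CPM for KRT7, 1060 and 526 for KRT19, and 430 and 217 for CLDN4. KRT8, KRT18, CDH1 and MUC1 had higher means in knockout tumours. Endothelial markers summed to 7.92 to 18.6 and 9.34 to 15.9 CPM, and leukocyte markers to 7.57 to 75.9 and 13.2 to 31.3 CPM. Skeletal muscle markers summed to 0.518 to 38.1 and 0.536 to 18.7 CPM and adipocyte markers to 8.31 to 16.4 and 12.3 to 18.9 CPM. Erythroid markers were under 0.19 CPM in sum and ADIPOQ had no count. In exact two-sided permutation tests, for which 4 against 4 tumours cannot go below p = 0.0286, the smallest p over the 7 marker sums was 0.0571 (epithelium), or 0.400 after Benjamini-Hochberg adjustment. After that adjustment, 1 sum with groups fully apart could not have passed 0.05. Sums also hide opposite changes: of the adipocyte markers, LPL averaged 8.15 and 0.0239 CPM in parental and knockout tumours, and CFD 2.91 and 12.0. These tests therefore cannot show that the groups had the same composition.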

How the data were processed

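Total RNA of 8 H2122 xenograft tumours, 4 per group, was sequenced. Each deposited file holds the raw counts of 1 tumour by gene symbol, with 5 summary lines that were left out (79.1 to 85.2% of the lines' total was assigned to genes). The submitters' processing notes name hg38, TopHat2 2.1.1 and HTSeq 0.11.0. The annotation, the strand setting and any removal of mouse reads are not given in the sources used here, so mouse reads that resemble human transcripts may be counted. Per the labels' protocols, total RNA was purified on RNeasy columns and libraries came from a NEBNext Ultra II DNA kit.

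Counts were tested with edgeR 4.0.16 (quasi-likelihood F-test, TMM scaling, filterByExpr with a minimum count of 10 and a minimum total of 15, R 4.3.3) on all genes, with Benjamini-Hochberg adjustment and a threshold of 0.05. SEs were taken from the fold change and its F statistic. CPM was computed on TMM-scaled library sizes. Exon lengths and positions came from GENCODE 29, and promoters from RefSeq. The smallest chi-square per degree of freedom over the 28 pairs of libraries was 8.21, so no library was a duplicate. The test was also run on simulated counts in which 200 genes were changed. Far more genes were called in the tumours, so that run does not give the error rate for these data. DESeq2 1.42.0, limma-voom (limma 3.58.1), other scalings and filters, a replicate block and leaving out each tumour were alternatives.

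The 10 genes and all lists were chosen with earlier results of these data known. Named genes are the 10, SMARCA4, 15 pathway genes (BMPR1A, BMPR1B, BMPR2, ACVR1, ACVR2A, SMAD1, SMAD5, SMAD4, NOG, GREM1, BAMBI, TCF3, TCF4, TCF12 and CDKN1A) whatever their result, up to 4 called genes of each list with the smallest p, and the 3 genes nearest to ID1, ID3 and BMP4. BMP8A, BMP8B, ACVR2B, RGMB, ENG, NBL1, CRIM1, CHRD, FSTL1, TWSG1, BMP1, RUNX2, GATA2, GATA3, HEY2, MSX1, MSX2, TWIST1, TWIST2, HES4, CDKN1B, overlapping antisense genes and the genes with low counts in the closing section were named after their values were seen. The values of 1 gene counted among the antagonists are not reported here.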

Additional observations from a re-analysis of the deposited data

Results flagged for a closer look

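A tumour stood apart from the 3 others of its group, by Dixon's test at the 95% level, in 5 of the 94 sets of 4 values examined, where chance gives about 1 in 20. SMAD9 was highest in parental 4 at 4.46 CPM, with the other parental tumours at 3.21 to 3.39. SMAD1 was lowest in knockout 4 at 12.8 CPM, with the others at 16.9 to 17.6, and without that tumour its log2 fold change was -0.14 (edgeR adjusted p = 0.311). NEDD4L was lowest in knockout 4 at 45.0 CPM, with the others at 51.8 to 52.6, and without that tumour its log2 fold change was -0.31 and no longer called (edgeR adjusted p = 0.0557). The summed endothelial markers were highest in knockout 2 at 15.9 CPM, with the others at 9.34 to 10.2. The summed skeletal muscle markers were highest in knockout 4 at 18.7 CPM, with the others at 0.536 to 1.03.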

How the results depend on the processing

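ID1, ID2, ID4 and SMAD9 kept their direction and call in all 16 alternatives, and BMP4 in the 8 that used all tumours. Of the 10 genes, 5 were called in each of those 8, the replicate block included, and 4 to 7 when 1 tumour was left out. Over all genes, 3871 to 4902 were called in the 8 alternatives (3871 with the replicate block) and 3501 to 4721 without 1 tumour. Same-numbered tumours had correlations of their deviations of -0.035, 0.0052, -0.28 and 0.12, and pairs with different numbers had -0.28 to 0.33. With 4 tumours per group, these values cannot settle whether tumours of the same number share anything. SMAD7 turned sign with limma-voom (-0.0093), library size only (-0.0021) and the replicate block (-0.0076), and without parental 1 (-0.036), knockout 1 (-0.13) and knockout 3 (-0.030), within a range of -0.13 to 0.14. BMPR2 turned without parental 2 (0.059) and knockout 4 (0.030; range -0.19 to 0.059), SMAD5 without knockout 4 (0.0044; range -0.13 to 0.0044), and SMAD4 with upper-quartile scaling (0.019) and without parental 2 (0.029) and knockout 4 (0.040; range -0.073 to 0.040). TWSG1 turned with library size only (-0.0027) and no filter (-0.0051), and within -0.061 to 0.10 without 1 tumour (-0.061, -0.0057 and -0.034 without parental 3, knockout 2 and knockout 3). BMP8B turned with upper-quartile scaling (0.0078) and without knockout 1 (0.0030) and 2 (0.024), within -0.13 to 0.024. The cause was not tested. BMPR1A was called with upper-quartile scaling (edgeR adjusted p = 0.0379) and without knockout 4 (0.0186). STUB1 lost its call with upper-quartile scaling (0.0666) and NBL1 with no filter (0.0605). CHRD passed with DESeq2 (adjusted p = 0.0472) and with no filter (0.0460), as FSTL1 did with no filter (0.0384). The share of calls that were higher was 47.9%, and 43.7 to 54.1% in other settings. At this depth ID4 had 3 to 38 counts per library, so counting error limits its precision.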

Other observations

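Several pathway genes had too few counts for the test and are given as counts, scaled ratios and exact 95% intervals for counting error only. SOST, the secreted antagonist sclerostin, had 14, 4, 19 and 63 counts in parental tumours and 0 in all 4 knockout tumours. Against a floor of 3 counts over the knockout group, which leaves out the counting error of the parental tumours, it was at least 33.0-fold lower there, or at least 16.8-fold lower without parental 4. The exact interval, which takes in that error, has a lower end of 26.3, or 13.0 without parental 4. ACVRL1, a type I receptor of endothelial cells, had 29 parental and 4 knockout counts, a parental-to-knockout ratio of 7.17 (2.52 to 28.1), or 10.9 (2.75 to 94.0) without knockout 2. Parental 3 and 4 held 13 and 12 of the 29 counts. Of the endothelial markers, CDH5 averaged 0.403 CPM in parental tumours and had no count in knockout tumours, VWF averaged 1.97 and 0.378 CPM, and PECAM1 averaged 7.94 and 9.77 CPM. Their part in the ACVRL1 counts was not tested. BMPER, a secreted BMP-binding protein, had 4 parental and 49 knockout counts, a knockout-to-parental ratio of 12.4 (4.54 to 47.3), or 18.9 (4.95 to 160.04) without parental 2. TLL1, a protease that cleaves the antagonist chordin, had 5 parental and 30 knockout counts, a knockout-to-parental ratio of 6.07 (2.33 to 20.03).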
